A study of Mus musculus with 12 samples.

Results

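The genotype by TGFβ1 interaction asks, gene by gene, whether mouse 4T1 cells with PBRM1 knocked out (KO) respond to TGFβ1 by the same factor as control cells. It was computed as the TGFβ1 response of PBRM1 KO cells minus the TGFβ1 response of control cells, both as log2 fold changes, over all 12 libraries of the series. A value above 0 marks a gene that was raised more, or lowered less, in PBRM1 KO cells. The 2 responses share no library. The table held 78317 genes apart from entries with the biotype transgene, 35661 of them had any count, and 14012 had enough counts to be tested.

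The 4T1 line comes from a mouse mammary carcinoma of the triple negative kind. The 4 groups were control cells without treatment, control cells after 4 days with 5 ng/ml TGFβ1, PBRM1 KO cells without treatment and PBRM1 KO cells after 4 days with 5 ng/ml TGFβ1, with 3 biological replicates each. Control and KO cells carry sgCt and sgPB in their library names, and the untreated libraries are titled 0 h. The guide sequences, the edited site, and whether the KO cells were 1 clone or a pool are not stated in the sources used here. All values are deduplicated 3′ end counts of poly(A) RNA, with library totals from 9265693 to 11250850 counts and 22908 to 24402 genes detected.

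TGFβ1 is a secreted cytokine whose receptor kinases phosphorylate SMAD2 and SMAD3, which then enter the nucleus with SMAD4 and act with partner factors such as AP-1 to change transcription. In mammary carcinoma cells it is known for raising matrix, protease and mesenchymal genes and for lowering epithelial junction genes. PBRM1 is the bromodomain-rich subunit of PBAF, a form of the SWI/SNF complex that uses ATP to move nucleosomes at promoters and enhancers. An interaction carries the error of all 4 groups, so it is estimated less precisely than either response.

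Pbrm1 itself was counted at 328, 261 and 258 CPM in untreated control libraries, where CPM is the count over the library total on a common scale. Untreated KO libraries held 245, 207 and 222 CPM. With TGFβ1 it stood at 290, 292 and 276 CPM in control and 274, 233 and 222 CPM in KO libraries. A 3′ count need not read the edited part, so these levels do not test the knockout. The cells kept the markers of their line in every library, with Epcam at 163 to 270 CPM, Krt8 at 572 to 916 CPM and Krt18 at 711 to 1008 CPM. Of the defining markers of leukocytes and endothelium, Ptprc reached at most 0.181 CPM, Cd3e 0.189 CPM, Csf1r 1.18 CPM, Pecam1 0.543 CPM and Cdh5 0.444 CPM. The 2 leukocyte markers with enough counts to be tested stood higher over the libraries, Cd68 at 3.62 to 7.825 CPM and Lyz2 at 1.17 to 2.58 CPM. Their interactions were log2 0.22 ± 0.27 and -0.08 ± 0.38. Markers of fibroblasts were not all near 0. The 11 fibroblast markers summed to 338 to 387 CPM without TGFβ1 and 260 to 362 CPM with it in control libraries, and to 308 to 327 CPM and 256 to 333 CPM in KO libraries, and none was at 0 in all libraries. Most of that sum was Gsn, the actin-severing protein gelsolin, at 225 to 355 CPM, while the receptor Pdgfra stood at 3.31 to 6.74 CPM and the proteoglycan Dcn at 1.202 to 3.799 CPM. Pdgfrb, a PDGF receptor, held 0.181, 0.921 and 0.106 CPM without TGFβ1 and 2.59, 3.35 and 0.662 CPM with it in control cells, which overlapped (edgeR adjusted p = 0.12). For KO cells the levels of Pdgfrb were 0.356, 0.0910 and 0 CPM and 8.40, 6.17 and 1.34 CPM, which did not overlap (adjusted p = 0.00529), and its interaction was log2 2.63 ± 1.60 (adjusted p = 1.00). Of the 6 fibroblast markers tested, 0 had an unadjusted interaction p below 0.05. The part of such cells in the results was not tested.

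The libraries with TGFβ1 that carry the number 3 stood apart from the other TGFβ1 libraries in both genotypes. Over the 273 genes called at least 2-fold higher in both genotypes, the median rise over the untreated cells of the same genotype was log2 1.83 and 1.85 in control replicates 1 and 2, and 1.01 in replicate 3. In PBRM1 KO cells it was 2.103 and 1.97 in replicates 1 and 2, and 1.10 in replicate 3. Over the 77 genes called at least 2-fold lower in both, the medians were -2.01, -1.72 and -1.43 in control cells and -1.81, -1.93 and -1.40 in KO cells. The smaller response of replicate 3 was thus present on both sides of the interaction. The values without these 2 libraries are given beside the results below.

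No gene passed the test of the interaction: 0 of 14012 genes (0%) had an adjusted p below 0.05 by edgeR's quasi-likelihood test, and the smallest adjusted p was 0.9996. At an unadjusted p below 0.05 there were 247 genes (1.76%), 134 with a higher (0.956%) and 113 with a lower (0.806%) response in KO cells. The median interaction over all tested genes was log2 0.003. DESeq2 and limma-voom had 123 and 255 genes at an unadjusted p below 0.05, and their smallest adjusted p was 0.0944 and 0.9999. They passed 0 genes too. The count was also 0 without both TGFβ1 replicate 3 libraries, where 487 genes had an unadjusted p below 0.05 and the smallest adjusted p was 0.206. It was 18 when no filter on low counts was used and 33568 genes were tested.

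The same fit called many genes for TGFβ1 itself. Control cells had 826 genes called higher (5.89%) and 408 lower (2.91%) with TGFβ1, 8.81% of those tested, and PBRM1 KO cells had 1072 higher (7.65%) and 521 lower (3.72%), 11.4% in all. Genotype changed fewer: 6 were higher (0.0428%) and 33 lower (0.236%) in KO cells without TGFβ1, 0.278% in all, and 10 were higher (0.0714%) and 28 lower (0.2%) with it, 0.271% in all. The larger count in KO cells is not by itself a difference of response. Of the 188 genes called higher in control cells alone, 14 had an interaction at an unadjusted p below 0.05, and of the 434 called higher in KO cells alone, 32 did. For genes called lower it was 18 of 146 in control cells alone and 29 of 259 in KO cells alone. Over all tested genes the share was 1.76%. A call in only 1 genotype itself favours a small interaction p, so these counts are a description. Without both TGFβ1 replicate 3 libraries the calls rose to 1988 higher and 1426 lower in control cells and to 2277 higher and 1707 lower in KO cells.

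The genes called in 1 genotype mostly had an estimate of the same sign in the other. Of the 826 genes called higher in control cells, 638 (77.2%) were also called higher in KO cells, and 822 had a rise as estimate there. Their median response was log2 0.86 in control cells, where they were chosen, and 0.85 in KO cells. Of the 408 called lower in control cells, 262 (64.2%) were also called lower in KO cells, with medians of -0.68 and -0.59. Of the 1072 called higher in KO cells, 638 (59.5%) were called higher in control cells, with medians of 0.85 in KO and 0.70 in control cells. Of the 521 called lower in KO cells, 262 (50.3%) were called lower in control cells, with medians of -0.62 and -0.49. A median in the genotype that chose the genes is raised by that choice. Of the 900 genes called in both genotypes, 0 were called in opposite directions. Across genes, which are not independent replicates, the 2 responses correlated at r = 0.855 over the 14012 genes and r = 0.914 over the 9111 genes with at least 10 CPM in a group.

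**Figure D1:**
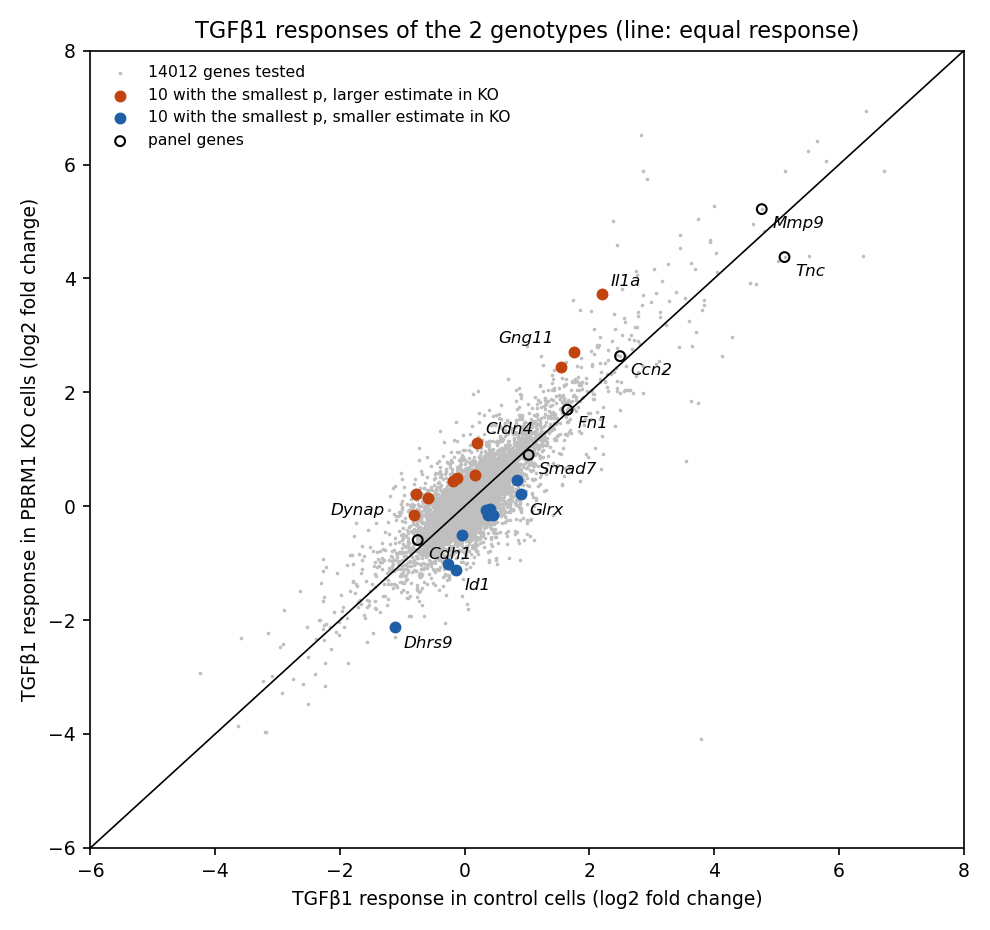
Each dot is 1 of the 14012 tested genes, with its TGFβ1 response (log2 fold change) in control cells on the x axis and in PBRM1 KO cells on the y axis; 3 genes lie outside the axes. The line marks equal responses. Filled circles mark the 10 genes per direction with the smallest interaction p among genes with at least 10 CPM in a group and a plain symbol. Open circles mark 6 genes known to respond to TGFβ1 or named for their role. The cloud follows the line, and 0 genes passed the test of the difference.

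How small a difference these 12 libraries could bound depended on the level of the gene. For 10759 of the 14012 genes (76.8%) the 95% interval of the interaction lay within log2 1 of 0, so that a 2-fold difference between the responses was outside it. For 6843 (48.8%) it lay within a 1.5-fold difference. Among the 2082 genes with 100 CPM or more in their highest group, 97.2% were bounded within log2 1, with a median standard error of 0.142. Among the 4901 genes under 10 CPM in every group, 42.4% were, with a median standard error of 0.387. The genes that TGFβ1 moved most were bounded least. Of the 699 called by at least 2-fold in 1 or both genotypes, 26.6% had their interval within log2 1 of 0, and their median standard error was 0.448. With 1 mean per group, the fit counts the shift of TGFβ1 replicate 3 as error. Without both TGFβ1 replicate 3 libraries the standard error of Tnc was 0.18 against 0.69, and that of Dhrs9 0.32 against 0.30. The shares bounded without them were not computed. An estimate past log2 1 was given for 190 genes (1.36%), none of which passed.

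The genes below are described because their unadjusted p was smallest, 10 in each direction, among genes with at least 10 CPM in a group and a plain symbol. The interaction chose them, so their values are a description with no support from the choice. The adjusted p was 1.00 for each of the 20. Among the 10 with a larger estimate in KO cells, 6 were called for TGFβ1 in control cells, 7 in KO cells and 3 in both. Among the 10 with a smaller estimate, the numbers were 4, 5 and 2.

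Il1a (ENSMUSG00000027399) encodes interleukin 1α, a cytokine released by damaged or activated epithelial cells that signals through the interleukin 1 receptor to NF-κB. Control libraries held 73.1, 125.5 and 121.5 CPM without TGFβ1 and 374, 465 and 640 CPM with it. PBRM1 KO libraries held 4.80, 6.55 and 9.06 CPM without TGFβ1 and 92.4, 97.4 and 81.8 CPM with TGFβ1. All KO libraries without TGFβ1 were below all control libraries, and the KO libraries with TGFβ1 only reached the range of untreated control cells. Il1a rose by log2 2.20 ± 0.24 in control cells (edgeR adjusted p = 0.000226) and by 3.72 ± 0.28 in KO cells (adjusted p = 1.4e-05). The interaction was 1.52 ± 0.36, with a 95% interval of 0.75 to 2.29 (unadjusted p = 0.000918, edgeR adjusted p = 1.00), and 1.82 ± 0.32 when both libraries of TGFβ1 replicate 3 were left out (adjusted p = 0.206). On the CPM scale the order was the other way round: the mean rose by 386 CPM in control and by 83.7 CPM in KO cells. The KO level stayed lower with TGFβ1, by log2 -2.46 (adjusted p = 0.000753), after -3.98 without it (adjusted p = 3.2e-05). The interaction and the untreated genotype difference share the untreated libraries.

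Cldn4 (ENSMUSG00000047501) encodes claudin 4, a sealing protein of epithelial tight junctions. Control libraries held 510, 404 and 439 CPM without TGFβ1 and 616, 557 and 378 CPM with it, so that the control groups overlapped. KO libraries held 238, 291 and 229 CPM without TGFβ1 and 641, 636 and 384 CPM with it, which did not overlap. The response was log2 0.20 ± 0.19 in control cells (edgeR adjusted p = 0.571) and 1.12 ± 0.20 in KO cells (adjusted p = 0.00317). The interaction was 0.92 ± 0.27, with a 95% interval of 0.33 to 1.51 (unadjusted p = 0.00481, edgeR adjusted p = 1.00). Without both TGFβ1 replicate 3 libraries, which held the lowest level of each TGFβ1 group, it was 0.94 ± 0.16 (adjusted p = 0.206). Cldn4 had fractional counts in 10 libraries, and whether some of its reads were shared with other genes was not tested.

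The promoter table was searched for Il1a, Cldn4 and Id1, described below, and 2 of the 3 matched. The windows of Il1a and Cldn4 are shown because AP-1 and E-box binding repressors such as SNAI1 and ZEB1 are textbook regulators of such genes. Each window runs from 250 bases before to 50 bases after the start in RefSeq (GRCm38.p6), read 5′ to 3′ on the gene's strand, with capitals at matches to AP-1 (TGANTCA) or an E-box (CAGGTG), searched on both strands.
Il1a, chr2:129309923-129310222, minus strand: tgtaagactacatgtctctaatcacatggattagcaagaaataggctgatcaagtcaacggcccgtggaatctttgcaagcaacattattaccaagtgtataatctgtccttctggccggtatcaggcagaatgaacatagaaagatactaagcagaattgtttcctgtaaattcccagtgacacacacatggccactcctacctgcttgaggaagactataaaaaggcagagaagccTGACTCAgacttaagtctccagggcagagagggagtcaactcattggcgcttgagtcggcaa
Cldn4, chr5:134946885-134947184, minus strand: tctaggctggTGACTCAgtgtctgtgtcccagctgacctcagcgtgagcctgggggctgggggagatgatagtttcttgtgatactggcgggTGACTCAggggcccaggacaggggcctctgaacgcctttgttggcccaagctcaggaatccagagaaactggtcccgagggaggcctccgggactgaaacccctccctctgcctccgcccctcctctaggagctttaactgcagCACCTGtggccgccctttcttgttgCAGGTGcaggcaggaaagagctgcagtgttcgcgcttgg
The Il1a window held 1 AP-1 match, beginning at -12 from the start, and the Cldn4 window held 2, beginning at -240 and -158. The Cldn4 window also held 2 E-box matches, beginning at -14 and +12, on opposite strands. Of 32851 promoter windows of the same length, 7.81% held an AP-1 match and 20.21% this E-box. A match is a sequence description and not a measured binding site.

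Gng11 (ENSMUSG00000032766), a γ subunit of heterotrimeric G proteins, stood at 87.1, 81.4 and 98.3 CPM in untreated control libraries and at 365, 302 and 231 CPM with TGFβ1. KO libraries held 54.2, 59.9 and 43.4 CPM without TGFβ1 and 415, 403 and 227 CPM with it. Every TGFβ1 library was above every untreated one, and the TGFβ1 groups of the 2 genotypes overlapped. The responses were log2 1.75 ± 0.21 and 2.72 ± 0.22, and the interaction was 0.97 ± 0.30 (edgeR unadjusted p = 0.00588, adjusted p = 1.00). Slc39a4, a zinc importer of the cell surface, held 9.94, 15.8 and 11.5 CPM in untreated control libraries and 32.8, 41.5 and 34.9 CPM with TGFβ1. KO libraries held 4.18, 4.55 and 4.25 CPM without TGFβ1 and 23.4, 29.7 and 18.1 CPM with TGFβ1. As for Il1a, Slc39a4 began lower in KO cells and its rise in mean CPM was smaller there, 19.4 against 24.0, while its log2 response was larger, 2.44 ± 0.21 against 1.55 ± 0.19, with an interaction of 0.89 ± 0.28. Il1a and Slc39a4 were the 2 of these 10 genes for which the CPM difference had the opposite sign.

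Other genes with a larger estimate in KO cells were lowered by TGFβ1 in control cells. Neurl3, an E3 ubiquitin ligase, held 17.8, 20.5 and 19.2 CPM in untreated control libraries and 9.93, 9.41 and 14.0 CPM with TGFβ1. In KO libraries it was low throughout, at 3.378, 4.28 and 3.24 CPM without TGFβ1 and 4.53, 3.29 and 4.83 CPM with TGFβ1. Its response was log2 -0.79 ± 0.17 in control cells (edgeR adjusted p = 0.0146, up to 0.0776 when 1 library was left out) and 0.21 ± 0.22 in KO cells (adjusted p = 0.583). Its interaction was 0.99 ± 0.28 (unadjusted p = 0.00316). Dynap, a dynactin-associated membrane protein, held 40.2, 45.9 and 44.9 CPM in untreated control libraries and 24.3, 26.4 and 23.9 CPM with TGFβ1, which did not overlap. KO libraries held 32.8, 31.5 and 40.5 CPM without TGFβ1 and 28.9, 36.4 and 29.6 CPM with TGFβ1, which did. The interaction of Dynap was 0.66 ± 0.17 (unadjusted p = 0.00219).

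The remaining 4 of the 10 were Casp9, the initiator caspase of the apoptosome, at 0.63 ± 0.18, Zfand2b, a zinc finger protein of the proteasome pathway, at 0.73 ± 0.21, Pigc, an enzyme of GPI anchor synthesis, at 0.62 ± 0.20 and the membrane protein Tmem176a at 0.39 ± 0.13. Casp9, Zfand2b and Pigc had group means near 10 CPM, between 5.02 and 13.7 CPM over all libraries. Their own TGFβ1 calls were lost in 10, 6 and 12 of the 23 alternatives. Tmem176a held 51.0 to 58.8 CPM in untreated control libraries, 61.2 to 65.6 with TGFβ1, 27.6 to 33.2 in untreated KO libraries and 42.2 to 46.2 with TGFβ1.

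Id1 (ENSMUSG00000042745) had the smallest interaction p of the 14012 tested genes, with an estimate below 0. It encodes an inhibitor of helix-loop-helix transcription factors and is a textbook target of BMP signalling through SMAD1 and SMAD5. Control libraries held 27.3, 32.3 and 33.7 CPM without TGFβ1 and 27.1, 33.6 and 24.2 CPM with TGFβ1, which overlapped. KO libraries held 36.1, 30.2 and 43.0 CPM without TGFβ1 and 16.7, 15.1 and 19.0 CPM with TGFβ1, which did not. The response was log2 -0.14 ± 0.16 in control cells (edgeR adjusted p = 0.627) and -1.11 ± 0.16 in KO cells (adjusted p = 0.000955). The interaction was -0.97 ± 0.22, with a 95% interval of -1.45 to -0.49 (unadjusted p = 0.000719, edgeR adjusted p = 1.00), and -1.17 ± 0.22 when both libraries of TGFβ1 replicate 3 were left out (adjusted p = 0.271). With TGFβ1 the KO level was lower by log2 -0.75, which did not pass (adjusted p = 0.092).

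Dhrs9, a dehydrogenase of retinol, fell in both genotypes. Control libraries held 12.2, 8.66 and 7.77 CPM without TGFβ1 and 3.89, 4.34 and 5.02 CPM with TGFβ1, and KO libraries 14.4, 16.7 and 12.4 CPM without TGFβ1 and 2.74, 2.99 and 4.29 CPM with TGFβ1. The responses were log2 -1.11 ± 0.21 and -2.12 ± 0.21 (edgeR adjusted p = 0.00664 and 7.9e-05), and the interaction was -1.01 ± 0.30 (unadjusted p = 0.00502). Glrx, the glutathione-dependent thiol reductase glutaredoxin, rose in control cells, and its change in KO cells did not pass. Its libraries held 18.3, 18.8 and 23.8 CPM without TGFβ1 and 35.8, 35.1 and 42.4 CPM with TGFβ1 in control cells, against 13.1, 14.8 and 16.3 CPM and 15.8, 15.5 and 20.3 CPM in KO cells. Glrx changed by log2 0.90 ± 0.15 in control cells (adjusted p = 0.00284) and by 0.22 ± 0.16 in KO cells (adjusted p = 0.405), and the difference itself was -0.68 ± 0.22 (unadjusted p = 0.00716, adjusted p = 1.00).

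Zeb2, a zinc finger repressor of E-cadherin, rose in both genotypes. It held 25.8, 23.9 and 24.1 CPM in untreated control libraries and 44.6, 39.9 and 46.8 CPM with TGFβ1, against 29.2, 27.8 and 31.3 CPM and 42.7, 37.7 and 41.7 CPM in KO libraries. The TGFβ1 groups overlapped between the genotypes, and the responses were log2 0.83 ± 0.10 and 0.46 ± 0.09 with an interaction of -0.38 ± 0.13 (edgeR unadjusted p = 0.0143). The other genes of this direction were Ssbp2, a single-stranded DNA binding protein, at -0.74 ± 0.20, Msrb2, a methionine sulfoxide reductase, at -0.53 ± 0.17, the deubiquitinase Usp45 at -0.39 ± 0.14, Rassf3 at -0.46 ± 0.17, the IP3 receptor Itpr1 at -0.46 ± 0.17 and the metalloprotease Adam19 at -0.61 ± 0.22. Of these 6, the call of Ssbp2 in KO cells (log2 -1.01 ± 0.14, adjusted p = 0.000844) held in all 23 alternatives. Rassf3 in KO cells and Itpr1 in control cells lost theirs in 3 and 15, and Msrb2, Usp45 and Adam19 were called in neither genotype.

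**Figure D2:**
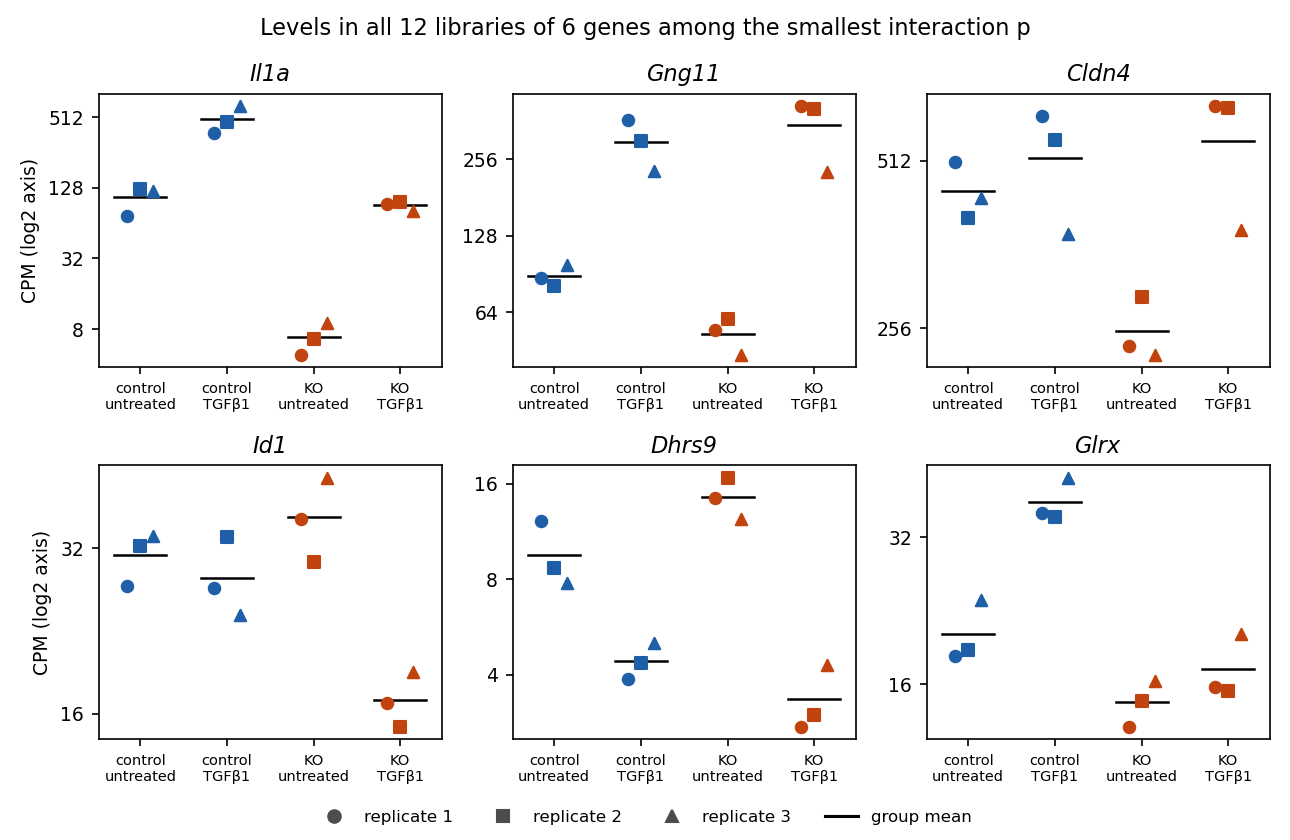
CPM (log2 axis) of 6 genes in each of the 12 libraries, by group, with the symbol giving the replicate number and the black line the group mean. In Il1a the KO libraries lie below the control libraries in both conditions, in Id1 the KO libraries with TGFβ1 (15.1 to 19.0 CPM) lie below all others, and in Gng11 and Cldn4 replicate 3 has the lowest level of each TGFβ1 group.

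Genes with a known place in the TGFβ pathway had estimates on both sides of 0. Smad7, the inhibitory SMAD that closes the feedback loop, held 41.0, 33.3 and 39.9 CPM in untreated control libraries and 89.9, 92.5 and 50.4 CPM with TGFβ1. In KO libraries it held 39.8, 33.3 and 41.9 CPM and 85.5, 82.3 and 49.6 CPM. The levels of the 2 genotypes overlapped in both conditions, with replicate 3 lowest after TGFβ1, and the interaction was log2 -0.12 ± 0.31 (95% interval -0.80 to 0.55). Ccn2, a matricellular growth factor, was at 0.15 ± 0.36 (-0.63 to 0.93).

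Of the 21 tested TGFβ-SMAD targets and pathway genes, 9 were called higher and 1 lower with TGFβ1 in control cells, where 5.89% and 2.91% of all tested genes were. In KO cells 12 were called higher and 1 lower, against 7.65% and 3.72% of all tested genes. In the interaction 0 passed and 0 had an unadjusted p below 0.05, against 1.76% of all tested genes. Of the estimates 12 were above 0 and 9 below, and the median was log2 0.06 against 0.003 over all genes. The interval of 15 of the 21 lay within log2 1 of 0. The latent TGFβ binding protein Ltbp3 was at 0.38 ± 0.20 and the receptor Tgfbr1 at -0.17 ± 0.12. Tgif1, a SMAD corepressor, was at 0.01 ± 0.13 (95% interval -0.27 to 0.30), and Tgfb1 itself, which encodes the ligand, at 0.08 ± 0.18 (-0.30 to 0.46).

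Of the 9 tested BMP-SMAD and Id genes, 2 had an unadjusted p below 0.05, both lower: Id1 and Id2. Over all tested genes the share was 0.806% lower and 1.76% in either direction. Id2, also an inhibitor of helix-loop-helix factors, held 37.0, 28.2 and 37.8 CPM in untreated control libraries and 20.1, 19.5 and 20.9 CPM with TGFβ1. In KO libraries it held 49.8, 35.9 and 69.1 CPM without TGFβ1 and 20.1, 18.5 and 19.0 CPM with TGFβ1. The levels after TGFβ1 were alike, the untreated KO level was higher on average and spread more widely, and the interaction of Id2 was -0.67 ± 0.27 (edgeR unadjusted p = 0.028). Smad1 and Smad5, which carry BMP signals, were at 0.03 ± 0.17 and 0.06 ± 0.18, and Id3 at -0.16 ± 0.27. The median of the list was -0.02.

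The matrix genes Fn1 and Tnc and the protease Mmp9 rose with TGFβ1 in both genotypes. Fn1, fibronectin, held 575, 534 and 482 CPM in untreated control libraries and 1546, 2038 and 1406 CPM with TGFβ1, against 528, 520 and 531 CPM and 1877, 1854 and 1432 CPM in KO libraries. The genotypes overlapped with TGFβ1, and the interaction was log2 0.05 ± 0.18 with a 95% interval of -0.33 to 0.43. Tnc, the matricellular protein tenascin C, rose from 7.59, 7.19 and 6.70 CPM to 330, 324 and 103 CPM in control cells and from 9.16, 9.46 and 12.2 CPM to 310, 255 and 84.1 CPM in KO cells. Its interaction was -0.75 ± 0.69 over all libraries, and -0.74 ± 0.18 (edgeR adjusted p = 0.832) without both TGFβ1 replicate 3 libraries. Mmp9, the gelatinase B, rose from 24.1, 22.9 and 24.7 CPM to 767, 961 and 227 CPM in control cells and from 23.8, 18.8 and 17.4 CPM to 1006, 983 and 278 CPM in KO cells. Its interaction was 0.46 ± 0.68 (95% interval -1.01 to 1.93). Of the 40 tested collagens, laminins and matricellular genes, 0 had an unadjusted interaction p below 0.05, with a median of 0.08. Of 28 matrix proteases and inhibitors 1 was higher, the membrane-type protease Mmp15 at 1.04 ± 0.38, and 2 lower, Adam19 and the gelatinase Mmp2 at -1.19 ± 0.48. Over all tested genes the share was 0.956% higher and 0.806% lower. Mmp15 and Mmp2 stood at 4.43 CPM or less in every library.

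Epithelial genes had estimates mostly above 0. Of the 40 tested junction, desmosome and keratin genes, 35 had an estimate above 0 and 5 below, against 7095 above and 6917 below among all tested genes. The median was log2 0.26, with a range of 0.15 to 0.32 over the 23 alternatives, and 0 genes passed. At an unadjusted p below 0.05 there were 2, Cldn4 and Rab25, both higher, where 0.956% of all tested genes were higher and 1.76% in either direction. Rab25, a small GTPase of recycling endosomes in epithelial cells, held 7.68, 8.29 and 7.34 CPM in untreated control libraries and 2.48, 2.89 and 2.74 CPM with TGFβ1. In KO libraries it held 5.24, 6.46 and 4.72 CPM and 3.21, 4.18 and 2.68 CPM. Rab25 changed by log2 -1.52 ± 0.18 in control cells (edgeR adjusted p = 0.000377) and by -0.72 ± 0.19 in KO cells (adjusted p = 0.023, up to 0.0974 when 1 library was left out), with an interaction of 0.80 ± 0.26 (unadjusted p = 0.00918). Genes of 1 list can vary together between libraries, so the shared sign is a description with no test.

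Abundant epithelial genes differed in how tightly they were bounded, with a standard error of 0.10 for Krt8 and 0.51 for Jup. Cdh1, E-cadherin, held 297, 227 and 230 CPM in untreated control libraries and 156, 168 and 124 CPM with TGFβ1, against 254, 255 and 257 CPM and 189, 173 and 151 CPM in KO libraries. It fell in both genotypes, and the interaction was log2 0.16 ± 0.17 (95% interval -0.21 to 0.52). Epcam, an epithelial adhesion protein, was at 0.28 ± 0.21 (-0.18 to 0.74), and the keratins Krt8, Krt18 and Krt19 at 0.19 ± 0.10, 0.18 ± 0.12 and 0.25 ± 0.22. Jup, plakoglobin, held 233, 165 and 166 CPM without TGFβ1 and 417, 488 and 159 CPM with it in control cells, and 173, 196 and 176 CPM and 541, 532 and 207 CPM in KO cells. TGFβ1 replicate 3 stayed near the untreated level in both genotypes, and the interaction of Jup was 0.30 ± 0.51.

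Of the 20 tested mesenchymal and EMT genes (EMT is the epithelial to mesenchymal transition), 3 had an unadjusted p below 0.05, all lower: Zeb2, Mmp2 and Twist1, a helix-loop-helix factor, at log2 -0.34 ± 0.16, against 0.806% lower and 1.76% in either direction of all tested genes. The estimates were 10 above and 10 below 0. Vim, the intermediate filament vimentin, held 944, 1063 and 1002 CPM in untreated control libraries and 969, 952 and 1223 CPM with TGFβ1, against 1374, 1533 and 1680 CPM and 1249, 1158 and 1628 CPM in KO libraries. The treated and untreated groups overlapped in both genotypes, and its interaction was -0.26 ± 0.19 (95% interval -0.67 to 0.16). Snai1, a zinc finger repressor, was at 0.26 ± 0.33. Zeb1 stood at 2.08 CPM or less in every library, and its interaction of 0.05 ± 0.56 changed sign in 7 of 22 alternatives.

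**Figure D3:**
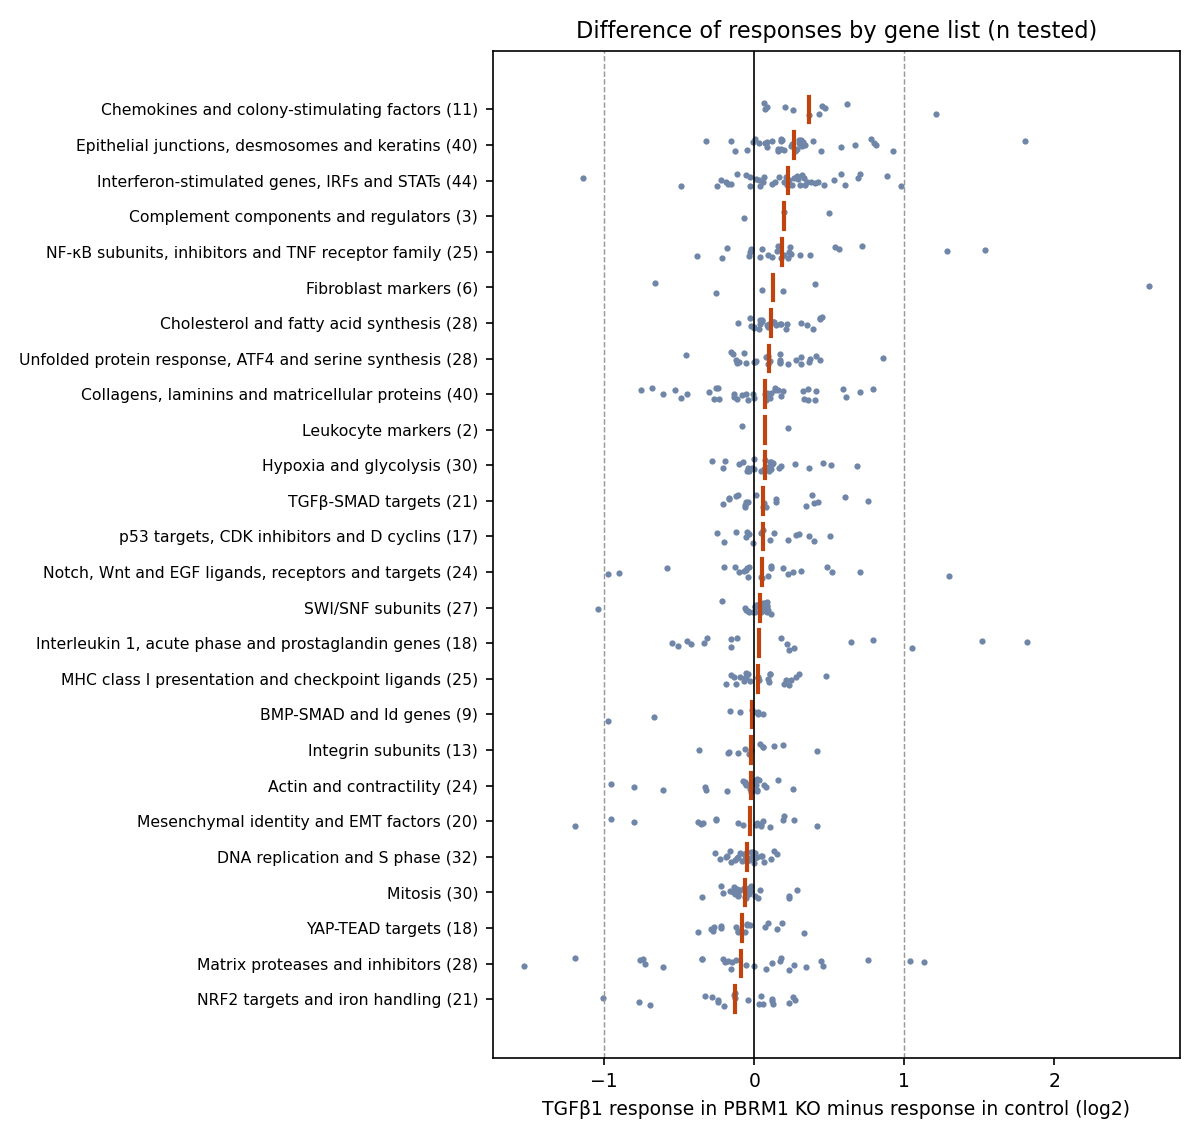
Each dot is the interaction (log2, KO response minus control response) of 1 tested gene, by gene list, with the list's median as a red bar and the number of tested genes in brackets; dashed lines mark log2 1 in either direction. The medians of the chemokine, epithelial and interferon lists lie at 0.37, 0.26 and 0.22, while those of mitosis and S phase genes lie at -0.06 and -0.05 with every dot near 0.

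Chemokines and colony-stimulating factors had the highest median of the lists. All 11 tested members had an estimate above 0, from log2 0.07 for Cx3cl1 to 1.21 for Ccl20, with a median of 0.37 that ranged from 0.15 to 0.40 over the 23 alternatives. None passed, and 1 had an unadjusted p below 0.05, against 1.76% of all tested genes. The interval of 5 lay within log2 1 of 0. Ccl20, a chemokine for CCR6-bearing lymphocytes and dendritic cells, held 4.97, 7.28 and 6.07 CPM in untreated control libraries and 14.4, 9.14 and 10.1 CPM with TGFβ1. The KO libraries held 0.444, 1.37 and 0.832 CPM and 3.49, 4.28 and 3.58 CPM. Every KO library was below every control library, and KO cells with TGFβ1 stayed under the untreated control level. Its interaction was 1.21 ± 0.41 (edgeR unadjusted p = 0.0112, adjusted p = 1.00). The neutrophil chemokines Cxcl1 and Cxcl2 were at 0.47 ± 0.58 and 0.37 ± 0.46, Ccl5 at 0.45 ± 0.27 and Csf1 at 0.21 ± 0.16. Cxcl5, also a neutrophil chemokine, held 76.7, 129 and 97.3 CPM without TGFβ1 and 8.53, 3.53 and 50.1 CPM with TGFβ1 in control cells, against 11.4, 13.2 and 11.3 CPM and 2.27, 2.19 and 6.79 CPM in KO cells. Its spread after TGFβ1 left the interaction at 0.62 ± 1.03, and the estimate ran from -0.17 to 2.45 when single libraries were left out.

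Interleukin 1, acute phase and prostaglandin genes were on both sides of 0, with 9 of 18 estimates above it and a median of log2 0.03. Besides Il1a the list held 1 gene at an unadjusted p below 0.05, the mitochondrial superoxide dismutase Sod2, at -0.32 ± 0.14. Of all tested genes 1.76% were below that p. Lcn2, the iron-trapping lipocalin 2, held 24.4, 37.4 and 33.8 CPM without TGFβ1 and 56.4, 66.4 and 128 CPM with TGFβ1 in control cells. In KO cells it held 0.711, 1.09 and 1.39 CPM without TGFβ1 and 4.34, 3.69 and 5.18 CPM with TGFβ1, all below the control cells. The responses of Lcn2, 1.39 and 2.04, gave an interaction of 0.65 ± 0.57 (95% interval -0.58 to 1.87). Nos2, the inducible nitric oxide synthase, was at 0, 0.0910 and 0.0925 CPM in untreated KO libraries, so its fitted interaction of 1.82 ± 0.87 rests on single reads.

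Of 25 genes of NF-κB, its inhibitors and TNF receptors, 19 estimates were above 0, with a median of log2 0.18. Nfkbiz, a nuclear inhibitor protein that also coactivates secondary response genes, held 34.9, 34.8 and 30.5 CPM in untreated control libraries and 53.8, 47.6 and 52.4 CPM with TGFβ1. KO cells held 12.5, 20.3 and 16.7 CPM and 43.3, 40.4 and 29.8 CPM. KO cells began lower and overlapped with no control library of the same condition, and the interaction of Nfkbiz was 0.57 ± 0.22 (edgeR unadjusted p = 0.0238). The subunit Nfkb1 was at -0.18 ± 0.13 and the ubiquitin editing inhibitor Tnfaip3 at -0.38 ± 0.20.

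Interferon-stimulated genes, IRFs and STATs had 33 of 44 estimates above 0 and a median of log2 0.22. That median ranged from -0.06 to 0.46 over the alternatives, and 14 of the 44 intervals lay within log2 1 of 0. Oasl1, an oligoadenylate synthetase-like protein, held 47.4, 36.6 and 34.5 CPM in untreated control libraries and 23.1, 27.1 and 15.3 CPM with TGFβ1. Its KO levels were 14.6, 18.8 and 9.15 CPM and 15.95, 19.5 and 11.5 CPM. The response of Oasl1 was log2 -0.86 ± 0.25 in control cells (edgeR adjusted p = 0.0489, up to 0.128 over the alternatives) and 0.13 in KO cells, which started lower, and the interaction was 0.98 ± 0.36 (unadjusted p = 0.0177). Irf8, an interferon regulatory factor best known in myeloid cells, held 5.61, 5.53 and 6.92 CPM without TGFβ1 and 5.83, 8.68 and 8.90 CPM with TGFβ1 in control cells. In KO cells it held 4.53, 4.37 and 6.195 CPM without TGFβ1 and 10.7, 10.3 and 11.2 CPM with TGFβ1, with an interaction of 0.69 ± 0.27 (unadjusted p = 0.021). The 12 leukocyte markers summed to 7.18 to 7.96 CPM without TGFβ1 and 6.87 to 8.31 CPM with TGFβ1 in control libraries, and to 7.999 to 10.5 CPM and 9.43 to 10.1 CPM in KO libraries. S100a9 was at 0 in all libraries, and the part of such cells in the result was not tested.

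Among ligands of neighbouring pathways, Areg, the EGF receptor ligand amphiregulin, held 14.4, 20.4 and 18.8 CPM in untreated control libraries and 29.3, 24.96 and 45.8 CPM with TGFβ1. The KO levels were 24.4, 22.8 and 26.1 CPM and 19.5, 17.5 and 32.9 CPM, where the groups overlapped. Its interaction was log2 -0.97 ± 0.36 (edgeR unadjusted p = 0.0186), and -1.01 ± 0.21 (adjusted p = 0.553) without both TGFβ1 replicate 3 libraries, the highest library of each TGFβ1 group. The Notch ligand Dll1 was at -0.90 ± 0.35, at 6.17 CPM or less in every library. The list of Notch, Wnt and EGF genes had 13 estimates above and 11 below 0. Integrin subunits, actin and contractility genes and YAP-TEAD targets had medians of -0.02, -0.02 and -0.08, with 0 genes at an unadjusted p below 0.05. Over all tested genes the share was 1.76%. The smallest p of these lists was that of Lats2, a kinase that inhibits YAP, at -0.28 ± 0.13, and the ectonucleotidase Nt5e was at -0.27 ± 0.19.

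The other subunits of the complex that holds PBRM1 gave little spread. Of 27 tested SWI/SNF subunits, 26 had their interval within log2 1 of 0 and the median was 0.04. Pbrm1 was at 0.08 ± 0.15, the core subunit Smarcb1 at 0.08 ± 0.10, the ATPase Smarca4 at 0.06 ± 0.15, the PBAF subunits Arid2 at 0.02 ± 0.14, Brd7 at 0.07 ± 0.15 and Phf10 at -0.04 ± 0.17, and Brd9 of the non-canonical form at 0.11 ± 0.16. The exception was Dpf1, a subunit known from neurons, at -1.04 ± 0.43 (edgeR unadjusted p = 0.0322), with 2.68 CPM or less in every library.

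Genes of cell division were bounded closely. For all 30 mitosis genes and all 32 DNA replication and S phase genes the 95% interval lay within log2 1 of 0. At an unadjusted p below 0.05 there were 0, against 1.76% of all tested genes. The share bounded was 76.8% of all tested genes. It was 94.7% of those at 10 to 100 CPM in their highest group and 97.2% of those at 100 CPM or more. A comparison with genes of the same level was not tested. The mitosis list had 24 of 30 estimates below 0 with a median of only -0.06, between Mki67, the proliferation antigen, at -0.35 ± 0.24, and Nusap1, a spindle protein, at 0.28 ± 0.15. The metabolic lists stood nearer to the 76.8% of all tested genes. Within log2 1 were 25 of 28 intervals for cholesterol and fatty acid synthesis and 24 of 30 for hypoxia and glycolysis. For the unfolded protein response, ATF4 and serine synthesis the number was 21 of 28. Cholesterol and fatty acid synthesis had 23 of 28 estimates above 0 and a median of 0.11, with Fdps and Fdft1, enzymes of the sterol pathway, at 0.44 ± 0.23 and 0.35 ± 0.18. Hypoxia and glycolysis genes had a median of 0.07, and Car9, the carbonic anhydrase induced by hypoxia, was at 0.37 ± 0.25. Genes of the unfolded protein response, ATF4 and serine synthesis had a median of 0.10 and MHC class I genes 0.03, again with 0 at an unadjusted p below 0.05. Among p53 targets and CDK inhibitors the stress gene Gadd45b was at 0.50 ± 0.22 (unadjusted p = 0.0398). Among NRF2 targets the glutathione transferase Gsta4 was at -1.01 ± 0.40 (unadjusted p = 0.0248), at 3.55 CPM or less in every library.

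**Figure D4:**
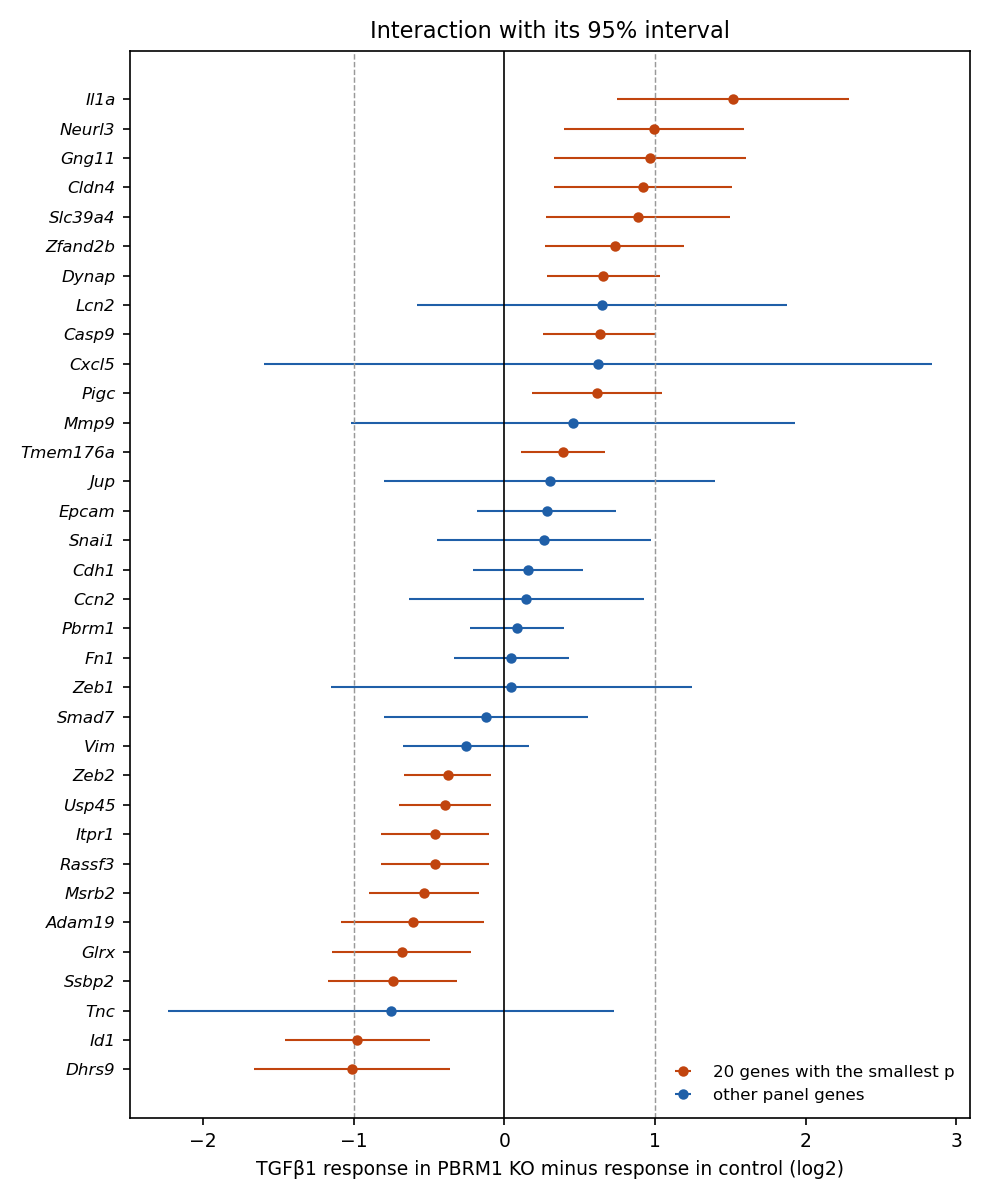
Interaction (log2) with its 95% interval for the 20 genes with the smallest p (orange) and the other panel genes (blue). Intervals that exclude 0 are those of the 20 genes chosen by p, all with an adjusted p of 1.00; that of Fn1 runs from -0.33 to 0.43, while those of Tnc and Mmp9, which TGFβ1 raised most among the panel genes, reach past log2 1 on one side or both.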

How the data were processed

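The deposited table held, for each of the 12 libraries, expected counts and CPM per gene, per the file headers. With a tolerance of 0, 91.8% of the deposited counts were whole, so some reads appear to have been shared between genes. That share includes the counts of 0, and the share among counts above 0 was not computed. The deposited CPM equalled count over library total to within 4.85e-06, and no adjustment for gene length is needed for 3′ end counts. Priming was on poly(A), and molecular identifiers were used to remove duplicates, per the labels' protocols. Build mm39, STAR 2.7.11, edgeR 3.38.4, featureCounts, Subread 2.1.1, Fastp 0.24.0 and SAMtools 1.22.1 are named, per the submitters' processing notes. Neither the settings nor the annotation release are stated in the sources used here. The 92 entries with the biotype transgene, all at 0 counts, were left out.

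Counts were rounded to whole numbers, filtered with filterByExpr and scaled by TMM. The 4 groups were fitted with 1 mean each on all 12 libraries with edgeR 4.0.16 in R 4.3.3 (quasi-likelihood F test, not robust, Benjamini-Hochberg over 14012 genes, adjusted p below 0.05). The common biological coefficient of variation was 12.5%. The error beside a log2 value is the estimate over the square root of F, and the 95% interval uses the t quantile at the total degrees of freedom. Printed CPM are counts over library totals, without TMM.

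The genes named are the 10 smallest unadjusted p per direction with at least 10 CPM in a group and a plain symbol, then in each of 27 lists up to 2 genes per direction (682 genes, 572 of them tested), and a panel of 16 genes. List members with an unadjusted p of 0.35 or more are mostly left out, a limit chosen after the values were seen. Cxcl1, Cxcl2, Cx3cl1, Csf1, Krt8, Krt18, Krt19, Twist1, Tgif1, Tgfb1, Id3, Smarca4, Arid2, Brd7, Phf10, Pdgfra, Pdgfrb, Dcn and Gsn were also named after their values were seen. The members, lists and panel were chosen with earlier results of these data known. Alternatives were RLE and library-total scaling, no filter, a filter at 10 CPM, robust dispersion, DESeq2 1.42.0, limma-voom in limma 3.58.1, the replicate number as a block, unrounded counts, fits without both TGFβ1 replicate 3 libraries or all 4 replicate 3 libraries, and each library left out in turn. The values of 1 gene that the rule for named genes selects are not reported here.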

Additional observations from a re-analysis of the deposited data

How the results depend on the processing

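The count of genes that passed the interaction was 0 in 22 of the 23 alternatives and 18 with no filter on low counts, where 33568 genes were tested; the cause was not tested. The count at an unadjusted p below 0.05, 247 of 14012, was 814 with no filter, 129 with at least 10 CPM in a group, 123 with DESeq2, 487 without both TGFβ1 replicate 3 libraries and 409 without all 4 replicate 3 libraries. It ran from 208 to 552 when single libraries were left out, with 552 without PBRM1 KO TGFβ1 replicate 3. The main fit did not take the replicate numbers as a pairing. Yet deviations of same-numbered libraries correlated over 0.1 in 15 of 18 pairs of libraries (-0.08 to 0.73), and 10 of 12 libraries correlated best with their own number. Any difference shared by a replicate number thus counts as error in the main fit. With the replicate number as a block, 452 genes had an unadjusted p below 0.05 and 0 passed. The smallest adjusted p by edgeR was then 0.483, against 0.9996 in the main fit. RLE scaling, library totals, robust dispersion, limma-voom and unrounded counts gave 244 to 255.

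The estimates of the 20 genes chosen by p, 10 per direction, kept their sign in all 23 alternatives. The interaction in the same libraries chose these genes, so a kept sign adds no support. The medians of the chemokine, epithelial, NF-κB, complement, cholesterol and unfolded protein response lists also kept their sign in all 23. So did those of the p53, mitosis and YAP-TEAD lists, at 0.06, -0.06 and -0.08. The complement list had only 3 tested members of 14, and its median was the estimate of Masp1, log2 0.20 ± 0.285. Taking the median level of a list in each library first gave the opposite sign for 2 of these lists. The KO minus control response was then log2 -0.778 for complement and -0.003 for p53. The leukocyte list had no member left at 10 CPM in a group. Estimates near 0 changed sign. Zeb1 was at log2 -0.052 with limma-voom and -0.29 without all 4 replicate 3 libraries. With single libraries left out the ranges were -0.42 to 0.38 for Zeb1, -0.018 to 0.15 for Pbrm1, -0.35 to 0.079 for Smad7, -0.065 to 0.39 for Ccn2, -0.052 to 0.22 for Fn1, -0.046 to 0.62 for Jup and -0.17 to 2.45 for Cxcl5. A library left out leaves 2 in its group, and the fit then takes that group to vary like the others. Of the genes under 10 CPM in every group, 42.4% were bounded within log2 1, against 97.2% of those at 100 CPM or more.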

Other observations

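Without both TGFβ1 replicate 3 libraries 0 genes passed, and the smallest p among plain symbols of at least 10 CPM were those of Cldn4, Gng11, Il1a and Il18rap, all higher in KO cells with an adjusted p of 0.206. Il18rap, a chain of the interleukin 18 receptor named after its values were seen, held 8.95, 7.56 and 6.598 CPM in untreated control libraries and 50.3, 49.6 and 22.9 CPM with TGFβ1. In KO libraries it held 3.378, 3.19 and 2.96 CPM without TGFβ1 and 46.9, 41.0 and 12.7 CPM with it. Its interaction was log2 1.08 ± 0.19 without these 2 libraries and 0.98 ± 0.61 with them. Adamts4, an aggrecanase, held 6.87, 6.08 and 5.11 CPM without TGFβ1 and 61.2, 74.0 and 14.0 CPM with it in control cells, against 2.40, 4.10 and 2.96 CPM and 87.8, 70.3 and 14.6 CPM in KO cells, with an interaction of 1.15 ± 0.25 without the 2 libraries and 1.13 ± 0.96 with them.

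The 18 genes that passed with no filter on low counts were 8 higher and 10 lower, and 16 of them were also tested with the filter, where 0 passed. Among them were Il1a, Cldn4, Gng11, Id1, Areg, Oasl1, Mmp3, Adamts4, Slc4a11 and Nupr1, with smaller standard errors than with the filter, such as 0.17 against 0.36 for Il1a. Mmp3, a stromelysin, held 67.0 CPM in control TGFβ1 replicate 3 against 11.6 and 16.9 CPM in replicates 1 and 2, and 24.7 against 6.04 and 6.47 CPM in KO cells. The smallest p there was that of Gm6392, a processed pseudogene, which stood at 95.4 CPM in control TGFβ1 replicate 1 and 97.0 CPM in untreated KO replicate 3 and between 1.43 and 4.95 CPM in the other 10 libraries.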
